A study of Homo sapiens with 18 samples.

Results

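Hindbrain medium was compared with midbrain medium in cells of posterior origin, that is, in cells that had first been made into posterior neural ectoderm (pNE). The comparison rests on 4 of the 18 libraries of the study: pNE_H replicates 1 and 2 (hindbrain medium) and pNE_M replicates 1 and 2 (midbrain medium). They were taken by their labels, and no measured value was used to choose them. All were wild-type cells of H1, an established human pluripotent stem cell line, in 2 biological replicates per group, collected on day 4. On the first day the cells were in definitive ectoderm medium (the base medium CDM2) with A8301 (1 µM, an inhibitor of TGF-beta family receptors), trametinib (250 nM, a MEK inhibitor), C59 (1 µM, which blocks secretion of WNT ligands) and LDN193189 (100 nM, a BMP receptor inhibitor). For the second day they were replated at 150000 cells per cm2 in pNE medium, which is CDM2 with A8301 (1 µM), LDN193189 (100 nM), TTNPB (50 nM, an agonist of retinoic acid receptors), FGF2 (20 ng/mL), XAV939 (1 µM, a tankyrase inhibitor that lowers WNT signalling) and thiazovivin (1 µM, a survival aid). By the labels, the groups differ in the medium after day 2. What the hindbrain and midbrain media held is not given in the sources used here. Where a reference is needed, pNE collected on day 2 (plated at 37500 cells per cm2) and day-4 cells of anterior origin in the same media (aNE_H and aNE_M, plated at 75000 cells per cm2, with C59 at 1 µM in the second day's medium and without TTNPB, FGF2 or XAV939) are given, with 2 libraries each.

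Position along the head-to-tail axis of the early neural tube is read from transcription factors. Forebrain and midbrain cells use OTX2, midbrain cells and the midbrain-hindbrain border use EN1, EN2 and PAX2, the segments of the hindbrain use HOX genes of the lowest group numbers together with EGR2, and the spinal cord uses HOX genes of higher group numbers, which the caudal factors CDX1 and CDX2 help to switch on. Retinoic acid and FGF set the posterior territories together with WNT signalling, and each pathway induces its own feedback genes, which serve as readouts of its activity.

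Levels are in TPM, a share of all transcripts in a library corrected for transcript length, and a difference is on the log2(TPM + 1) scale, where 1 unit is 2-fold for well-expressed genes and less than the true change for genes near 0. Differences are given ± their SE from the fit. Of the 37550 rows, 14313 reached 1 TPM in at least 2 of the 4 libraries and were tested with limma in a fit of all 18 libraries. A gene was called, and is said to be higher or lower, to rise or to fall, at an adjusted p under 0.05 and a difference of at least 1. The 4 libraries each had 13930 to 14027 genes at 1 TPM or more and 1.80% to 2.04% of TPM from mitochondrial genes. Replicates correlated across genes at r = 0.983 in pNE_H and 0.985 in pNE_M, against 0.943 to 0.947 between the groups. TPM keeps no depth, so the number of reads behind a value is unknown. These are bulk samples, in which fewer cells of a type and less RNA per cell cannot be told apart.

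Trunk HOX genes, caudal factors and WNT feedback genes were higher in midbrain medium, and SFRP5, CRABP1, RARB and most called HOX cofactors were higher in hindbrain medium. In all, 1015 of 14313 genes were called (7.09%), 510 higher in pNE_H (3.56%) and 505 lower (3.53%). By adjusted p alone, without the size limit, 23.9% of genes passed. In 252 of the called genes the difference reached 4-fold, 131 of them higher and 121 lower. All 1015 had groups that did not overlap, as did 60.4% of all tested genes (28.1% with pNE_H above and 32.2% with pNE_H below). The median difference over all tested genes was -0.01. Counts of called genes in the lists below are to be read against the 3.56% higher and 3.53% lower of all tested genes. The lists and their members were chosen with earlier results of these data known. A list's distance from these shares may thus partly reflect that choice. The counts describe the lists and do not test them.

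The 12 largest rises included SFRP5, a secreted WNT antagonist, at 108 and 90.4 TPM in pNE_H against 0.587 and 0.419 TPM in pNE_M. CRABP1, a cytoplasmic carrier of retinoic acid, was at 533 and 559 against 8.69 and 9.09 TPM. For SFRP5 and CRABP1 both libraries in hindbrain medium lay far above both in midbrain medium, with differences of 6.05 ± 0.20 and 5.79 ± 0.06 (adjusted p of 1.1e-10 and 1.3e-15). Several others encode secretory or signalling proteins. CHGA (chromogranin A, a secretory granule protein) was at 294 and 241 against 3.65 and 3.76 TPM, and SPX (the precursor of the peptide spexin) at 179 and 245 against 2.71 and 4.43 TPM. CGA, the alpha subunit shared by the glycoprotein hormones, was at 18.1 and 17.9 against 0.142 and 0.352 TPM, and MCHR1, the receptor of melanin-concentrating hormone, at 189 and 183 against 10.7 and 12.2 TPM. Also among them were NELL1 (a secreted glycoprotein, 5.35 ± 0.17), SHISA2 (which holds back maturation of frizzled and FGF receptors, 4.46 ± 0.13), F2RL2 (a protease-activated receptor, 4.42 ± 0.18), SEZ6L (4.32 ± 0.21) and COL25A1 (a transmembrane collagen, 4.19 ± 0.32), each with adjusted p of 5.2e-07 or less.

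The 12 largest falls were led by SP5, a zinc-finger factor and a direct target of WNT signalling, at 0.171 and 0.0905 TPM in pNE_H against 756 and 625 TPM in pNE_M (-9.25 ± 0.39, adjusted p = 2.0e-09). The others were the HOX genes HOXB6, HOXB8 and HOXB9, the caudal factors CDX1 and CDX2, the WNT antagonist DKK1, the WNT receptor FZD10, the neural factors ZIC1 and FOXB1, URAD (an enzyme of urate breakdown) and LY6G6D (a surface protein). In pNE_M these 11 ranged from 43.2 and 39.6 TPM for FOXB1 to 247 and 252 TPM for CDX2, while in pNE_H none but CDX2 (3.34 and 4.39 TPM) and ZIC1 in replicate 1 (1.08 and 0.660 TPM in the replicates) reached 1 TPM. The scatter of group means places all 24 genes far from the diagonal.

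**Figure D1:**
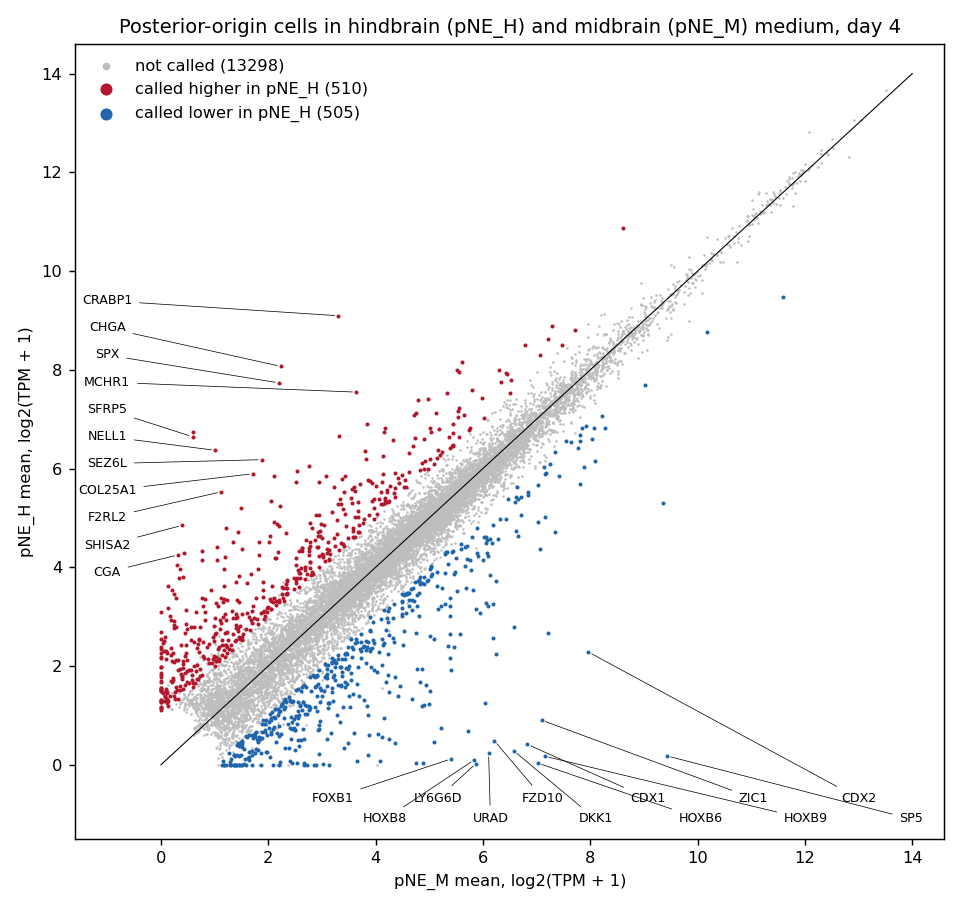
Mean log2(TPM + 1) in pNE_M (horizontal axis) and pNE_H (vertical axis) for the 14313 tested genes, each a point, with the 510 called higher in red, the 505 called lower in blue, and the diagonal marking equal levels. The labelled rises, such as SFRP5 and CRABP1, stand above the diagonal and the 12 largest falls below it.

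HOX genes, the homeobox factors whose group number follows position from hindbrain to tail, were split by group number. Of 12 genes of groups 1 to 4, 1 was higher in pNE_H and 5 were lower, with a median difference of -0.77. Of 15 genes of groups 5 to 9, 10 were tested and 9 were lower, with a median of -1.99. Of the 15, 2 were at 1 TPM or more in each pNE_H library, against 11 and 10 in the pNE_M libraries. Most of the tested genes thus passed the filter through pNE_M, which favours calls of lower in pNE_H. No gene of groups 10 to 13 reached the filter. The shares called lower are to be read against 3.53% of all tested genes.

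In the group 1 to 4 genes, HOXB1 was at 347 and 312 TPM in pNE_H and 340.0 and 346 TPM in pNE_M, so the ranges overlapped (-0.06 ± 0.14, adjusted p = 0.81). HOXB2 and HOXA3 were likewise not called, with differences of 0.23 ± 0.16 and -0.07 ± 0.24. HOXB3 and HOXD3 lay below in pNE_H without overlap, with differences of -0.92 ± 0.15 and -0.61 ± 0.17, under the size needed for a call. HOXD1 fell from 95.8 and 97.9 TPM in pNE_M to 27.0 and 24.6 TPM in pNE_H. All 4 genes of group 4 were lower. HOXC4 was at 0.466 and 0.280 against 35.5 and 30.6 TPM, HOXB4 at 1.58 and 1.02 against 31.8 and 26.1 TPM and HOXD4 at 0.914 and 1.12 against 14.98 and 12 TPM. HOXA4 had the lowest level of the 4 in pNE_M, 3.64 and 2.27 TPM, against 0.257 and 0.799 TPM.

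Among genes of groups 5 to 9, HOXB6 was at 0.0433 and 0 TPM in pNE_H against 138 and 121 TPM in pNE_M (-7.00 ± 0.17, adjusted p = 1.4e-11), and HOXB9 at 0.0788 and 0.173 against 153 and 130.4 TPM (-6.98 ± 0.17, adjusted p = 1.4e-11). HOXB8 was at 0.0958 and 0.0421 against 62.0 and 50.3 TPM, and HOXA7 at 0 and 0.0460 against 32.0 and 24.8 TPM. These 4 were near 0 in hindbrain medium and among the well-expressed HOX genes in midbrain medium. HOXB5 fell less, from 14.8 and 13.1 to 4.60 and 3.49 TPM. HOXB7 (4.83 and 3.87 TPM in pNE_M), HOXC5 (3.68 and 2.81), HOXC6 (1.60 and 1.03) and HOXA6 (1.47 and 1.44) were lower in pNE_H from low levels in pNE_M. HOXA5 was the gene of these groups that was not called, at 14.7 and 14.2 TPM in pNE_H and 18.04 and 13.1 TPM in pNE_M (-0.08 ± 0.21, adjusted p = 0.83). Within the HOXB cluster on chromosome 17 (GRCh38.p14, RefSeq), HOXB1 (chr17:48528526-48531011), HOXB2 and HOXB3 were not called, while HOXB4 (chr17:48575507-48578350) and the genes beyond it up to HOXB9 (chr17:48621156-48626358) were lower in hindbrain medium. HOX genes overlap one another and their antisense transcripts (the RefSeq spans of HOXB3 and HOXB4 overlap, as HOXC4 spans its neighbours), and whether the quantification used strand is not given in the sources used here, so these genes are uncertain to the extent that reads were shared among them.

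**Figure D2:**
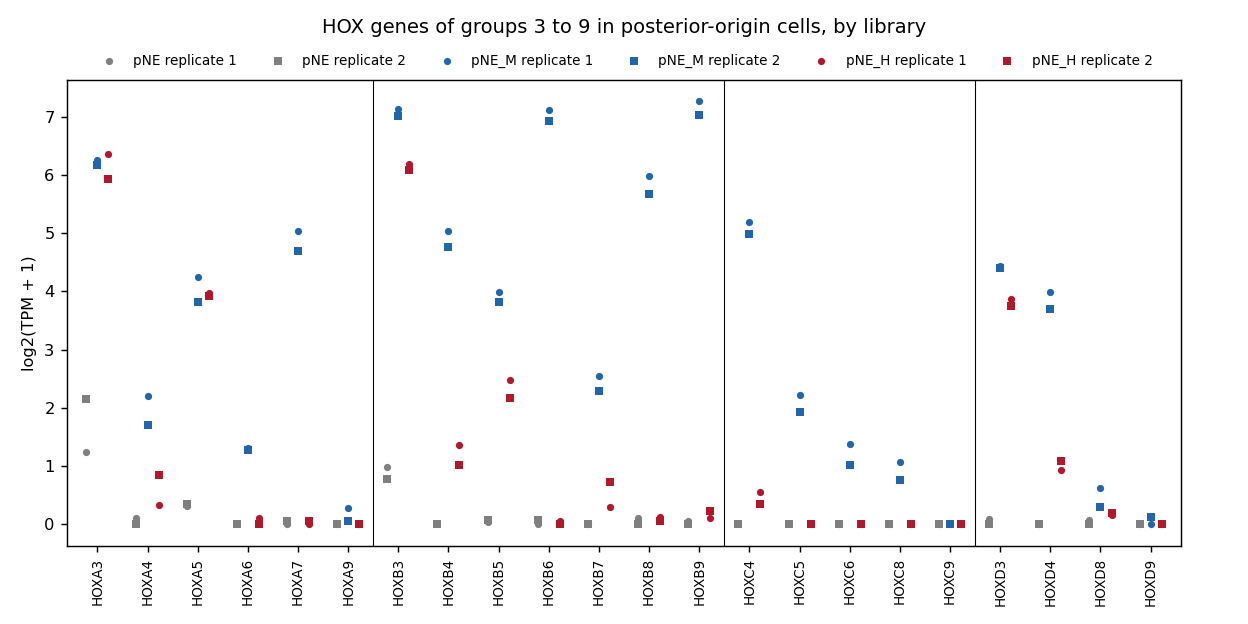
Level of HOX genes of groups 3 to 9 in log2(TPM + 1) (vertical axis) in the 2 libraries of day-2 pNE (grey), pNE_M (blue) and pNE_H (red), with circles for replicate 1 and squares for replicate 2 and vertical lines between the 4 clusters. HOXB6, HOXB8, HOXB9, HOXA7 and HOXC4 are at or near 0 at day 2 and in pNE_H and high in pNE_M, whereas HOXA3 and HOXA5 lie close together in both media.

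Of 13 listed caudal progenitor genes, which mark the cells that build the trunk, 10 were tested. In pNE_H 7 were lower and 1 was higher (3.53% and 3.56% of all tested genes), with a median difference of -2.49. The 7 include SP5, described above, which also counts among the WNT target genes below. Each pNE_M library had 10 of the 13 at 1 TPM or more and each pNE_H library 4. Most of the tested genes thus passed the filter through pNE_M, which favours calls of lower in pNE_H. CDX1 was at 0.445 and 0.214 TPM in pNE_H against 127 and 98.6 TPM in pNE_M (-6.41 ± 0.19), and CDX2 at 3.34 and 4.39 against 247 and 252 TPM (-5.69 ± 0.25). NKX1-2, a factor of the caudal neural plate, was at 0.455 and 0.490 against 20.1 and 12.6 TPM, and FGF17 at 0.0580 and 0 against 28.7 and 23.2 TPM. In none of the 4 did a library in hindbrain medium approach one in midbrain medium. TBXT, the brachyury factor of nascent mesoderm and axial progenitors, was low in pNE_M (1.21 and 1.94 TPM) and listed at 0 in both pNE_H libraries. EVX1 was similar, at 1.52 and 1.95 TPM in pNE_M and 0 in pNE_H. The gene that rose was WNT5A, a ligand of the branch of WNT signalling that does not use beta-catenin, at 59.4 and 61.2 against 24.7 and 22.4 TPM (1.32 ± 0.13). URAD, among the largest falls at 0.350 and 0 against 72.6 and 63.1 TPM, lies beside CDX2 on chromosome 13 (URAD at chr13:27977717-27988693, CDX2 at chr13:27960918-27969315, GRCh38.p14).

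WNT target and feedback genes, which beta-catenin switches on, were lower in hindbrain medium. Of 14 tested genes, 12 were lower in pNE_H and none was higher (3.53% and 3.56% of all tested genes), with a median difference of -1.69 against -0.01 for all tested genes. AXIN2, the feedback scaffold that destroys beta-catenin, was at 73.3 and 66.2 TPM in pNE_H against 272 and 268 TPM in pNE_M (-1.94 ± 0.10, adjusted p = 7.6e-09). LEF1, a transcription factor that binds beta-catenin, was at 26.7 and 24.0 against 159 and 164 TPM. DKK1, a secreted antagonist that binds the coreceptors LRP5 and LRP6, was at 0.119 and 0.302 against 91.8 and 97.6 TPM. The differences of LEF1 and DKK1 were -2.63 ± 0.21 and -6.31 ± 0.16, and no library of one medium reached the range of the other. NKD1, an inhibitor of dishevelled, was at 6.70 and 4.09 against 156 and 139 TPM, and NOTUM, an enzyme that strips the lipid from WNT ligands, at 1.81 and 0.900 against 33.4 and 28.1 TPM. APCDD1, a membrane antagonist, was at 4.46 and 4.14 against 41.5 and 38.1 TPM. Smaller falls were seen for CCND1 (-1.43 ± 0.10), RNF43 (-1.42 ± 0.19), LGR5 (-1.23 ± 0.19), ZNRF3 (-1.18 ± 0.13) and TCF7 (-1.07 ± 0.16). NKD2 (-0.65 ± 0.35) and WIF1 (-0.67 ± 0.24) were not called.

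The promoter of SP5, the gene with the largest fall, is shown because it carries several copies of the motif bound by the LEF1 and TCF factors. The sequence is from RefSeq, GRCh38.p14, chr2:170715087-170715386, plus strand, 250 bases before to 50 after the first start listed for the gene. Capitals mark matches on either strand to the motif CTTTGAA or its variants with the ending changed, CTTTGAT and CTTTGTA and CTTTGTT; the motif TTCAAAG is CTTTGAA read on the other strand.
SP5: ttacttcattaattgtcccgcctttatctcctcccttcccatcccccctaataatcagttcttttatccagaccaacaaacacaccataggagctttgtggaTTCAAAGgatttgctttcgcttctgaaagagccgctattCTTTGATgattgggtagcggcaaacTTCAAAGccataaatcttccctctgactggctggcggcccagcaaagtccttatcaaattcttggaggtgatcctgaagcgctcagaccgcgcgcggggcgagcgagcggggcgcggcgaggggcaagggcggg
The 3 matches lie at -148 to -142, -109 to -103 and -84 to -78 from the start. At least 3 matches were found in 4 of 10681 tested genes with a promoter in the table (0.0374%), in 49 of all 27305 promoters (0.179%), in 2 of 331 genes called lower (SP5 and CD74, the latter named after its values were seen) and in 0 of 346 called higher. A promoter with any match was found for 38 of the 346 genes called higher and 37 of the 331 called lower (11.2%), against 8.59% of tested genes and 13.9% of all promoters. DKK1 and URAD held 2 matches each and CDX2 held 1. These matches describe sequence alone, and binding was not measured.

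Of 37 WNT ligands, receptors and secreted antagonists, 25 were tested, 5 were higher and 4 were lower in pNE_H, with a median difference of -0.06. The secreted antagonists SFRP1 and SFRP5 rose, SFRP1 from 44.4 and 46.4 TPM in pNE_M to 135 and 150.1 TPM in pNE_H (1.63 ± 0.07). Receptors moved in both directions. FZD8 was at 19.9 and 18.4 against 0.720 and 0.671 TPM and FZD4 at 38.9 and 41.99 against 14.5 and 14.9 TPM, whereas FZD10 was at 0.425 and 0.373 against 76.3 and 70.1 TPM. FZD9 fell by a smaller amount (-1.10 ± 0.20), and by 0.96 without pNE_H replicate 2, under the size limit. FZD7, the receptor with the highest level of the list, was at 213 and 196 against 112 and 125 TPM and was not called (0.78 ± 0.09). Among the ligands, WNT6 (5.49 and 4.05 TPM in pNE_M) and WNT11 (2.06 and 2.15 TPM) were lower in pNE_H, and WNT1 and WNT3A stayed at or below 0.0797 TPM on average in both media.

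Retinoid genes carry, make, degrade or respond to retinoic acid. Of 17 tested, 7 were higher and 1 was lower in pNE_H (3.56% and 3.53% of all tested genes), with a median difference of 0.55. RARB, the retinoic acid receptor that is itself induced by its ligand, was at 56.9 and 65.5 TPM in pNE_H against 4.48 and 5.16 TPM in pNE_M (3.42 ± 0.15, adjusted p = 3.0e-09). DHRS3, an induced reductase that returns retinal to retinol, was at 106 and 107 against 16.6 and 17.0 TPM (2.59 ± 0.13). Both genes showed close replicates and no overlap between media. RDH10, which makes retinal from retinol, was at 73.3 and 71.0 against 27.3 and 35.7 TPM. NR2F2, an orphan receptor that responds to retinoids, was at 27.7 and 25.9 against 4.804 and 7.33 TPM. NRIP1 (1.07 ± 0.11) and RARA (1.02 ± 0.13) rose by less. Without pNE_H replicate 1 the difference of RARA was 0.94 and without pNE_M replicate 1 it was 0.96, and that of RDH10 without pNE_M replicate 1 was 0.996, each under the size limit. RARG moved the other way among the receptors, at 9.90 and 14.4 against 77.6 and 70.9 TPM (-2.54 ± 0.17). CYP26A1, the retinoic acid hydroxylase that is a standard readout of the pathway, was at 39.5 and 31.1 TPM in pNE_H and 35.3 and 27.1 TPM in pNE_M, with overlapping ranges (0.18 ± 0.17). Unlike CRABP1, CRABP2 was not called (-0.51 ± 0.09), and it was the most abundant gene of the list in both media, at 5022 and 5105 against 6949 and 7519 TPM. STRA6, the receptor that takes up retinol, was not called either (-0.81 ± 0.12).

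The promoter of RARB is shown because it holds the DR5 retinoic acid response element, a direct repeat with 5 bases between its copies that retinoic acid receptors bind. The sequence is from RefSeq, GRCh38.p14, chr3:25428013-25428312, plus strand, 250 bases before to 50 after the first start listed for the gene, and capitals mark the element.
RARB: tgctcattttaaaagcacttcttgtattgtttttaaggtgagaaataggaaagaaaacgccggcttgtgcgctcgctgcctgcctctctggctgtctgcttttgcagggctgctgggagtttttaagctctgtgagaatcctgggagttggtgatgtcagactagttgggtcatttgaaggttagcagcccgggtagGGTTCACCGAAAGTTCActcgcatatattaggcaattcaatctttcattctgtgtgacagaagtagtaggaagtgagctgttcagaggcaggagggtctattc
The element lies at -53 to -37 from the start. Both strands were searched. It was found in 2 of 346 genes called higher with a promoter in the table (RARB and BATF2, the latter named after its values were seen), in 0 of 331 called lower, in 6 of 10681 tested genes (0.0562%) and in 22 of all 27305 promoters (0.0806%). These are too few to describe the called genes as a group, and neither the other starts of each gene nor its enhancers were searched.

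**Figure D3:**
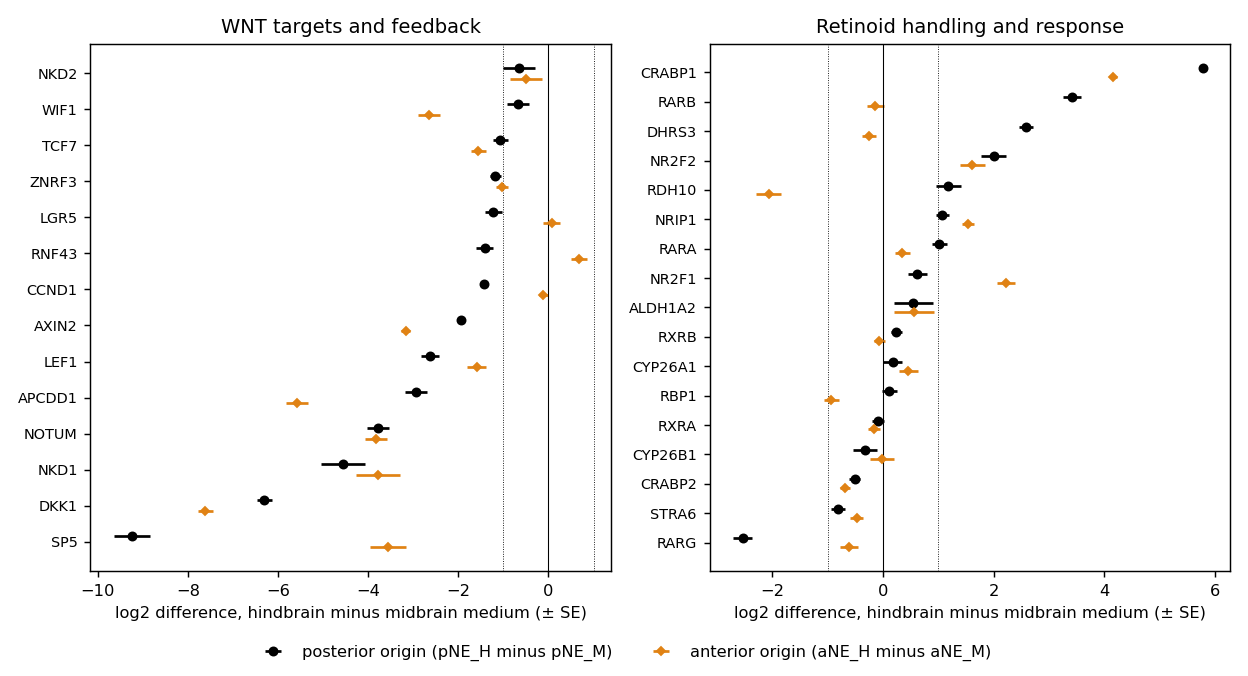
Difference between hindbrain and midbrain medium (log2 scale, horizontal axis, bars of 1 SE) for the 14 tested WNT target and feedback genes (left) and the 17 tested retinoid genes (right), in cells of posterior origin (black circles) and anterior origin (orange diamonds), with dotted lines at 1 unit either way. WNT genes lie to the left in both origins for AXIN2, DKK1, LEF1, NKD1, NOTUM and SP5, while RARB and DHRS3 lie to the right in posterior-origin cells and near 0 in anterior-origin cells.

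Hindbrain segment genes gave 5 higher and 1 lower of 12 tested (3.56% and 3.53% of all tested genes), with a median difference of 0.27. EGR2 (KROX20, a factor of rhombomeres, the hindbrain segments) was higher in pNE_H at a low level, 7.47 and 6.54 against 1.45 and 2.79 TPM (1.39 ± 0.25, adjusted p = 0.0011). GBX2, which sets the front border of the hindbrain, was at 33.1 and 24.8 against 5.22 and 6.44 TPM. IRX3 was at 39.4 and 30.7 against 9.27 and 9.73 TPM. The gene that fell was ZNF703 (-1.02 ± 0.23), a repressor of the NET family, which lay at the size limit for a call. Its difference was -0.79 without pNE_H replicate 2 and -0.92 without pNE_M replicate 1 (adjusted p of 0.07 and 0.0498), and it was not called in either, nor under median-ratio scaling (-0.999) or quantile normalization (-0.98). EPHA4, a receptor that keeps segments apart, was not called (0.37 ± 0.16).

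HOX cofactors, which bind DNA together with HOX proteins, gave 4 higher and 1 lower of 8 tested, with a median difference of 0.96. This count and that of the IRX and ZIC families are to be read against 3.56% higher and 3.53% lower of all tested genes. MEIS3 was at 193 and 175 against 35.2 and 43.2 TPM (2.21 ± 0.10, adjusted p = 4.6e-09) and MEIS1 at 128 and 150.5 against 27.3 and 40.6 TPM (2.03 ± 0.22). PBX3 was at 28.5 and 34.5 against 9.599 and 12.8 TPM. PKNOX2 was lower (-1.40 ± 0.21). Of the IRX and ZIC families, both of which pattern the neural plate, 4 genes were higher and 3 lower of 9 tested, and the 4 that rose were IRX genes (IRX1, IRX2, IRX3 and IRX5). IRX1 was low (5.24 and 4.40 against 1.88 and 1.66 TPM) and its difference was 0.96 without pNE_H replicate 1. Among those that fell, ZIC1 was at 1.08 and 0.660 against 148 and 123 TPM and ZIC4 at 0 and 0.0297 against 8.01 and 6.26 TPM.

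EN1 and EN2, which define the midbrain and its border, were near 0 in the posterior-origin cells in midbrain medium, while PAX2 was expressed. For EN1 the pNE_M libraries were both at 0 and the pNE_H libraries at 0.113 and 0.0744 TPM, EN2 was at 0.0405 and 0.0239 TPM in pNE_M, and LMX1A was at 0 in all 4 libraries. In anterior-origin cells in the same medium EN1 was at 141 and 128 TPM and EN2 at 18.8 and 16.6 TPM. Of the 12 midbrain and border genes listed, 4 passed the filter. PAX2 was at 33.0 and 33.1 TPM in pNE_M against 5.71 and 3.98 TPM in pNE_H, and OTX2 at 4.30 and 5.38 against 1.37 and 0.908 TPM, far below the 136 and 162 TPM of aNE_M. PAX8, which also marks the ear placode, rose in hindbrain medium to 6.25 and 3.84 TPM from 0 and 0.102 TPM. Of 16 forebrain and eye-field genes 4 were tested, and SIX3 was higher in pNE_H (10.8 and 10.4 against 0.129 and 0.184 TPM).

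Of 13 tested general neural progenitor genes, 2 were higher and 1 was lower (3.56% and 3.53% of all tested genes), with a median difference of -0.21. SOX2 was at 100.8 and 87.0 TPM in pNE_H and 127 and 103 TPM in pNE_M (-0.29 ± 0.11), and NES, a filament protein of neural progenitors, at 293 and 279 TPM in pNE_H and 213 and 213 TPM in pNE_M (0.42 ± 0.09). SOX1, which defines the neural plate, was low in every library, at 0.0851 and 0.131 TPM in pNE_H and 1.03 and 1.34 TPM in pNE_M. PAX6 rose to 5.39 and 5.39 TPM in pNE_H from 0.508 and 0.232 TPM in pNE_M (2.23 ± 0.21), and SOX21 rose as well (1.65 ± 0.20). Of 17 genes of neuronal differentiation 3 were tested. NEUROG2, a proneural factor, was at 0.391 and 0.317 against 24.8 and 14.2 TPM, TUBB3 at 70.2 and 59.2 against 243 and 226 TPM, and LHX1 moved the other way, at 19.1 and 20.1 against 2.55 and 1.13 TPM. DCX and STMN2, which mark young neurons, stayed under 1 TPM in all 4 libraries. The list summed to 91.8 and 81.7 TPM in pNE_H and 272 and 243 TPM in pNE_M, mostly from TUBB3.

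Of 7 tested genes that pattern the neural tube from back to belly, 1 was higher in pNE_H (PAX6, described above), 3 were lower (MSX1, PAX3 and PAX7) and 3 were not called, with a median difference of -0.98. MSX1, a BMP and WNT response factor of the border, was at 42.7 and 34.2 TPM in pNE_H against 666 and 646 TPM in pNE_M (-4.07 ± 0.20, adjusted p = 7.9e-09), and MSX2, from outside this list, at 25.7 and 19.7 against 71.2 and 82.7 TPM. PAX3 was at 2.37 and 4.54 against 43.0 and 38.9 TPM and PAX7 at 0.713 and 0.592 against 6.55 and 6.92 TPM. PAX3, PAX7, MSX1 and SP5 are among the genes that stand in more than 1 list, so the lists' counts are not separate. Neural crest genes split, with 4 higher and 3 lower of 13 tested (3.56% and 3.53% of all tested genes) and a median difference of -0.20. FOXD3, a factor of newly specified crest, was at 0.106 and 0 against 20.2 and 11.6 TPM, but SOX10, a later crest factor, was higher in hindbrain medium (16.2 and 12.7 against 5.35 and 5.43 TPM), as were NGFR (59.3 and 54.6 against 9.32 and 10.1 TPM), SNAI1 (1.28 ± 0.15) and ETS1 (1.63 ± 0.19). SOX9, SNAI2 and TWIST1 were not called.

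BMP genes gave 4 higher and 4 lower of 18 tested, with ligands in both directions. The counts for the BMP, FGF, hedgehog and Notch lists are to be read against 3.56% higher and 3.53% lower of all tested genes. BMP4 was at 19.5 and 19.8 against 133 and 132 TPM, whereas BMP2 was at 59.9 and 59.04 against 18.9 and 20.4 TPM and BMP7 at 127 and 109 against 47.0 and 38.2 TPM. The antagonist CHRD was higher (1.26 ± 0.21) and FST lower (-1.16 ± 0.14, or -0.88 without pNE_H replicate 1). ID1, ID2 and ID3, direct readouts of BMP signalling, had differences of 0.95 ± 0.18, 1.00 ± 0.17 and 0.20 ± 0.09 and were not called, ID2 by a margin smaller than its rounding, while ID4 was (1.14 ± 0.13). In the FGF family, 3 of 13 tested genes (FGF17, FGF19 and FGF12) were lower and FGFRL1, a receptor without a kinase domain, was higher. FGF19 was at 0.235 and 0.311 against 8.63 and 10.6 TPM. Of 16 feedback genes of FGF and ERK signalling, ETV5 (1.08 ± 0.11) and PHLDA1 (1.34 ± 0.10) were higher and none was lower. The most abundant of them, DUSP6, was at 286 and 298 TPM in pNE_H and 249.4 and 257 TPM in pNE_M (0.21 ± 0.08). In the hedgehog list GLI3 (-1.34 ± 0.14) and HHIP (-1.56 ± 0.25) were lower and FOXA2, the floor plate and endoderm factor, was higher at 4.996 and 4.29 against 0.0890 and 0 TPM. Of 14 tested Notch genes 4 were lower (DLL1, DLL3, HEY2 and NRARP) and none was higher. The ligand DLL1 was at 0.776 and 1.22 against 5.90 and 4.04 TPM, and without pNE_M replicate 1 its adjusted p was 0.054.

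Guidance genes, whose products steer axons and keep cell groups apart, gave 8 higher and 5 lower of 42 tested. The counts for the guidance, matrix and cadherin lists are to be read against 3.56% higher and 3.53% lower of all tested genes. FLRT3, an adhesion and guidance receptor, was at 111 and 126 against 12.7 and 13.8 TPM (3.07 ± 0.12, adjusted p = 1.1e-09). SEMA6A was at 178 and 157 against 31.0 and 29.9 TPM. All 3 called UNC5 receptors of netrins were higher (UNC5B 1.03 ± 0.12, UNC5C 1.76 ± 0.19, UNC5D 1.67 ± 0.13). The neuropilins NRP1 (-1.29 ± 0.22) and NRP2 (-1.36 ± 0.10) and the secreted semaphorins SEMA3A, SEMA3B and SEMA3D were lower, SEMA3B from 38.2 and 43.8 TPM in pNE_M to 5.44 and 5.16 TPM in pNE_H. No ephrin or Eph receptor of the list was called. Of 32 matrix and integrin genes 3 were higher and 5 lower. Fibronectin (FN1) was at 273 and 234 against 43.9 and 45.3 TPM (2.48 ± 0.14), with ITGA3 (2.17 ± 0.13) and ITGB1 (1.04 ± 0.08) also higher, though ITGB1 by 0.95 without pNE_H replicate 2, and COL3A1 was at 0.105 and 0.617 against 10.6 and 9.74 TPM. The cell adhesion gene CDH20 was the 1 of 18 genes of the cadherin list that rose, at 7.87 and 8.29 against 0.0978 and 0.0867 TPM, and CDH11 and PCDH18 fell. CDH5, a cadherin listed with the endothelial genes below, rose too. Without 1 library (SEMA3A without pNE_H replicate 1, CDH11 without pNE_M replicate 2) the differences were -0.90 for SEMA3A and -0.99 for CDH11, under the size limit. CDH2 (N-cadherin) was at 77.3 and 93.3 TPM in pNE_H and 104 and 106 TPM in pNE_M and was not called.

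Markers of other cell types that the cultures could hold moved as well, and their counts are to be read against 3.56% higher and 3.53% lower of all tested genes. Of 13 tested placode and surface ectoderm genes 4 were higher and 1 lower. Among those higher, EYA1 was at 15.3 and 18.1 against 0.615 and 1.51 TPM and GATA3 at 16.6 and 12.6 against 0.319 and 0.239 TPM. EYA1 acts in placodes of the ear and sense organs. The keratin KRT19 fell (-1.10 ± 0.14, or -0.91 without pNE_H replicate 2). The list summed to 1843 and 1619 TPM in pNE_H and 2274 and 2336 TPM in pNE_M, most of it from KRT8 and KRT18, keratins of simple epithelium that were high in all 4 libraries (KRT8 at 872 and 762 TPM in pNE_H and 1002 and 986 TPM in pNE_M) and not called. TP63, which defines epidermis, stayed under 0.2 TPM. Mesoderm and endoderm genes gave 4 higher and 3 lower of 11 tested. In hindbrain medium FOXC1 (19.6 and 16.7 against 2.37 and 2.69 TPM) and GATA4 (6.59 and 5.63 against 0.3004 and 0.0712 TPM) were higher, and in midbrain medium MIXL1 (12.2 and 10.9 against 0.108 and 0 TPM) and HAND1 (5.34 and 5.36 against 0.0425 and 0 TPM). The list summed to 69.7 and 62.3 TPM in pNE_H and 57.9 and 58.1 TPM in pNE_M, and of 20 genes 4 and 7 were at 0 in the pNE_H libraries and 1 and 5 in the pNE_M libraries. Of 3 tested endothelial and blood genes, CDH5 was higher in pNE_H (5.86 and 6.50 against 0.451 and 0.327 TPM) and TEK, an angiopoietin receptor, was lower (6.99 and 8.68 against 16.3 and 17.2 TPM). The difference of TEK was -1.01 ± 0.13, and it was not called under median-ratio scaling (-0.991), without pNE_H replicate 1 (-0.874) or without pNE_M replicate 2 (-0.977). PECAM1 and TIE1 stayed under 0.6 TPM, and the list summed to 16.9 and 17.9 TPM in pNE_H and 21.3 and 21.9 TPM in pNE_M. GATA3, GATA4 and CDH5 were under 1 TPM in both pNE_M libraries, and MIXL1 and HAND1 in both pNE_H libraries. Each passed the filter through the other medium, which favours its call. The part of these cell types in the differences above was not tested.

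Lists of growth, metabolic and stress genes are to be read against the 7.09% of all tested genes called. Of 20 cell cycle genes 2 were lower, CCND1 and CDKN2A, and none was higher, and MKI67, a marker of cycling cells, was at 41.3 and 40.6 TPM in pNE_H and 53.9 and 52.3 TPM in pNE_M (-0.37 ± 0.13). Of 17 cholesterol synthesis genes 0 were called by limma's adjusted p and the size limit together, with 9 at an unadjusted p under 0.05, 6 at an adjusted p under 0.05, and differences from -0.66 to 0.37. Of 9 genes of the insulin-like growth factor system 0 were called in the same limma test, with 6 at an unadjusted and 5 at an adjusted p under 0.05, and differences from -0.49 to 0.78. Of 23 glycolysis and hypoxia genes, the glucose transporter SLC2A3 was lower (182 and 232 against 509 and 523 TPM) and ADM higher. Of 16 stress genes 4 were higher, all targets of the ATF4 branch of the stress response: DDIT3 (1.93 ± 0.14), TRIB3 (1.70 ± 0.09), ASNS (1.51 ± 0.10) and CHAC1 (1.92 ± 0.10). ASNS, which makes asparagine, was at 228 and 263 against 80.5 and 90.5 TPM. ATF4 itself was at 624 and 630.2 TPM in pNE_H and 499 and 543 TPM in pNE_M and was not called, nor were the p53 targets CDKN1A and MDM2. Of the pluripotency genes ZFP42 (-2.60 ± 0.10) and L1TD1 (-1.09 ± 0.10) were lower in hindbrain medium, POU5F1 was at 4.58 and 5.15 TPM in pNE_H and 4.17 and 5.31 TPM in pNE_M, and NANOG stayed under 0.2 TPM. The bars by list show the 2 directions side by side.

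**Figure D4:**
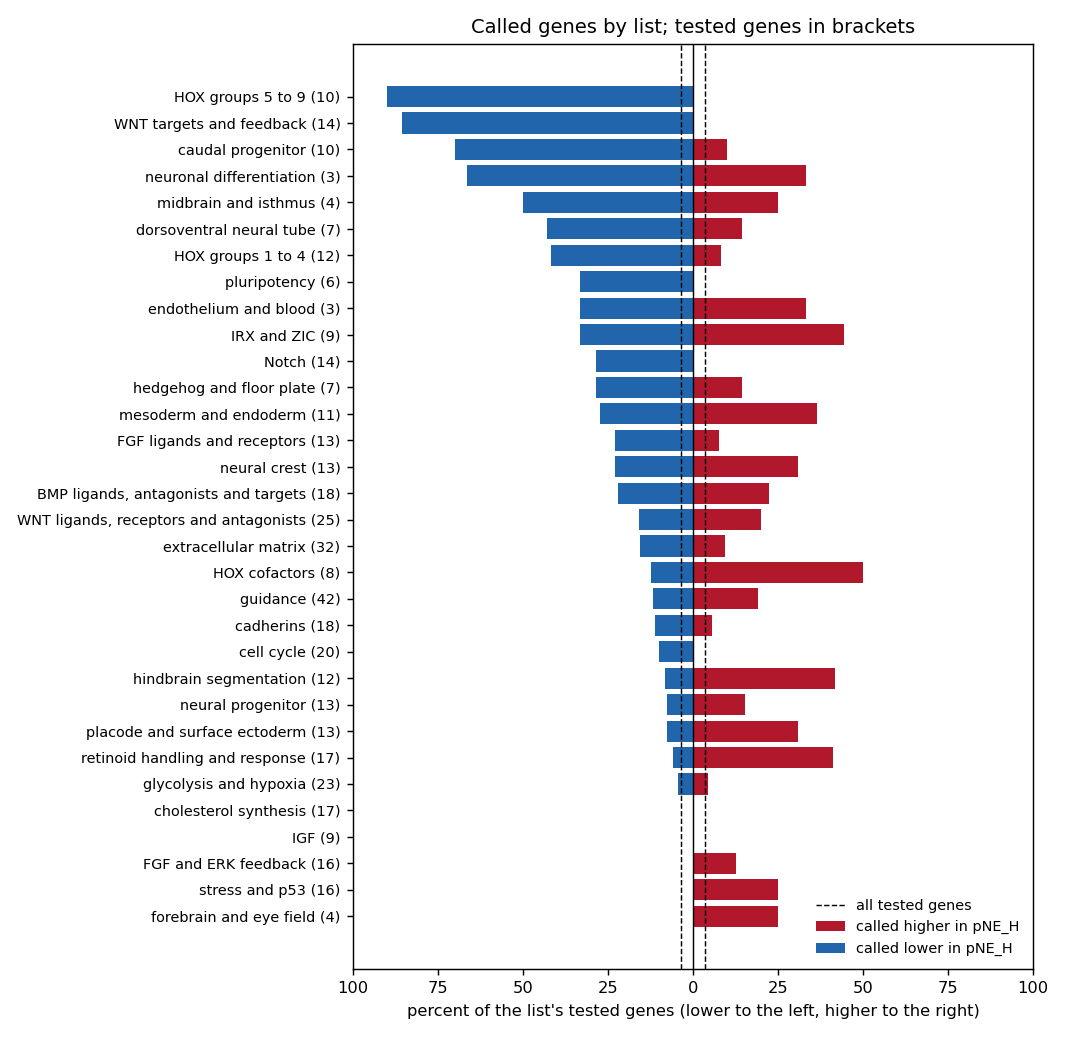
Percent of each list's tested genes called lower (blue, to the left) and higher (red, to the right) in pNE_H against pNE_M, with the number of tested genes in brackets and dashed lines at the 3.56% higher and 3.53% lower of all 14313 tested genes. Genes of HOX groups 5 to 9 and WNT targets lie almost wholly to the left, HOX cofactors and retinoid genes mostly to the right, and lists under 5 tested genes give coarse shares. The lists were chosen with earlier results of these data known, so the shares are descriptive.

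To place both day-4 states, each was set beside the day-2 pNE cells they came from. Relative to day 2, 1758 genes were called in pNE_H (12.3%), 765 higher (5.34%) and 993 lower (6.94%), and 1807 in pNE_M (12.6%), 831 higher (5.81%) and 976 lower (6.82%). By adjusted p alone the shares were 40.8% and 38.8%. The balance of directions turned under quantile normalization, with 950 higher and 838 lower in pNE_H and 969 higher and 862 lower in pNE_M. The comparisons share the day-2 libraries, and day and plating density changed with the medium, so only each comparison's own values are given. Of the 10 tested HOX genes of groups 5 to 9, 10 were higher than on day 2 in pNE_M and 2 (HOXA5 and HOXB5) in pNE_H. Most of the 10 passed the filter through pNE_M, which favours a rise there. HOXB9 was at 0.0429 and 0 TPM on day 2 and its difference from day 2 was 7.12 ± 0.17 in pNE_M and 0.14 ± 0.17 in pNE_H, and for CDX1 the values were 6.75 ± 0.19 and 0.34 ± 0.19. CDX2 was called higher than on day 2 in both media (7.83 ± 0.25 in pNE_M and 2.13 ± 0.25 in pNE_H). For SP5, at 2.47 and 8.76 TPM on day 2, the differences were 6.88 ± 0.39 in pNE_M and -2.37 ± 0.39 in pNE_H, called in opposite directions. SFRP5 and NELL1 were gains of the hindbrain-medium cells, with 5.96 ± 0.20 and 6.10 ± 0.17 in pNE_H and -0.09 ± 0.20 and 0.75 ± 0.17 in pNE_M, where neither was called.

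Other genes were at their day-2 level or above in hindbrain medium and fell from it in midbrain medium. CHGA was at 258 and 323 TPM on day 2, with a difference of -0.12 ± 0.13 in pNE_H and -5.95 ± 0.13 in pNE_M. The retinoid-response genes showed the same order: RARB was at 21.4 and 20.0 TPM on day 2, rose to its pNE_H level (1.52 ± 0.15) and fell to its pNE_M level (-1.90 ± 0.15), DHRS3 gave 0.82 ± 0.13 and -1.77 ± 0.13, and CRABP1 1.27 ± 0.06 and -4.52 ± 0.06. CYP26A1 differed from these, at 352 and 348 TPM on day 2 and lower in both media (-3.28 ± 0.17 and -3.46 ± 0.17). HOXB1, HOXB2, HOXA3 and HOXA5 rose from day 2 in both media, HOXB1 from 15.2 and 19.5 TPM by 4.18 and 4.24. AXIN2 also rose in both, by 2.68 in pNE_H and 4.62 in pNE_M from 9.45 and 10.6 TPM. IGF2, a fetal growth factor, rose in both media from 2.18 and 3.21 TPM on day 2 to 1381 and 1175 TPM in pNE_H and 1064 and 1156 TPM in pNE_M, while it was at 3.80 and 3.12 TPM in aNE_H and 11.4 and 14.01 TPM in aNE_M.

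The same media were set against each other in anterior-origin cells, a comparison that shares no library with the posterior one. In aNE_H against aNE_M 722 of the 14313 genes were called (5.04%), 340 higher (2.38%) and 382 lower (2.67%), with 16% by adjusted p alone. In both origins 105 genes were higher and 134 lower, which is 23.5% of the posterior calls and 33.1% of the anterior calls, and 31 genes were called in opposite directions. The difference between origins, tested as an interaction (the medium difference in posterior-origin cells minus that in anterior-origin cells), was called for 1101 genes (7.69%), 568 positive (3.97%) and 533 negative (3.72%), with 16.1% by adjusted p alone. Among list genes it was called for 160 of 420. Origin and plating density differed together and cannot be told apart here.

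The HOX genes called between media in posterior-origin cells were under 0.2 TPM in the anterior-origin libraries, and CDX2 was at 0.789 and 0.152 TPM in aNE_H and 1.76 and 1.67 TPM in aNE_M. HOXB6 was at 0 in the 4 anterior-origin libraries, and the interactions of HOXB6, HOXB9 and HOXB8 were -7.00 ± 0.24, -6.80 ± 0.24 and -5.65 ± 0.26 (adjusted p of 1.8e-09, 1.8e-09 and 1.6e-08). CDX1 averaged 0.783 TPM in aNE_M, and its interaction was -5.66 ± 0.27. For WNT target genes, 10 of 14 were lower in aNE_H than in aNE_M, with a median difference of -2.13 against -1.69 in posterior-origin cells. The interaction was called for 9 of the 14, 4 positive and 5 negative. DKK1, at 387 and 459 TPM in aNE_M and 1.04 and 1.26 TPM in aNE_H, differed more in anterior-origin cells on the log2(TPM + 1) scale (interaction 1.31 ± 0.23). In pNE_H it was under 1 TPM, where that scale shrinks differences. In mean TPM its fall was 450-fold in posterior-origin cells, and in anterior-origin cells its means were 423 against 1.15 TPM. The 450-fold rests on 0.119 and 0.302 TPM in pNE_H, near the floor, so it does not rank the origins. APCDD1 (2.63 ± 0.34) and AXIN2 (1.23 ± 0.14) also differed more in anterior-origin cells. SP5 differed less there (-5.68 ± 0.56), with aNE_H at 68.6 and 33.3 TPM. RNF43, LGR5 and CCND1 were lower in hindbrain medium in posterior-origin cells, and their interactions were -2.10 ± 0.27, -1.30 ± 0.27 and -1.31 ± 0.14.

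Among genes higher in hindbrain medium, the retinoid-response genes RARB and DHRS3 were low in anterior-origin cells in either medium, with means of 0.345 TPM in aNE_H and 0.471 TPM in aNE_M for RARB and 0.896 and 1.26 TPM for DHRS3, and with interactions of 3.55 ± 0.22 and 2.85 ± 0.18. CRABP1 was called higher in both origins, at 983 and 946 TPM in aNE_H and 53.5 and 52.5 TPM in aNE_M. The cofactors MEIS1, MEIS3 and PBX3 each had a called interaction, of 1.78 ± 0.32, 2.19 ± 0.15 and 1.57 ± 0.20. The 6 largest positive interactions were those of NELL1, SFRP5, APLNR, SHISA2, ATP8A1 and SEZ6L. APLNR, the apelin receptor, was not called between the posterior-origin groups (15.4 and 12.04 against 9.48 and 9.54 TPM), but was at 67.3 and 77.0 TPM in aNE_M against 1.43 and 1.45 TPM in aNE_H (interaction 5.38 ± 0.26). SST, the somatostatin precursor, was called in opposite directions, at 8.33 and 8.12 TPM in pNE_H and 70.8 and 64.4 TPM in pNE_M but 39.8 and 34.4 TPM in aNE_H and 1.62 and 2.05 TPM in aNE_M. NELL1, RDH10, BMP2, FLRT3, HHIP and SLC2A3 were also among the 31 opposite calls, with RDH10 at 19.4 and 9.69 TPM in aNE_H and 56.0 and 66.0 TPM in aNE_M. FZD8, SFRP1, GBX2, SIX3 and the 4 ATF4 targets were called higher in hindbrain medium in both origins, and none of these 8 had a called interaction. The interactions of ASNS (-0.71 ± 0.14), CHAC1 (-0.75 ± 0.15) and DDIT3 (0.86 ± 0.19) had an adjusted p under 0.05 in limma and missed the call by the size limit.

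**Figure D5:**
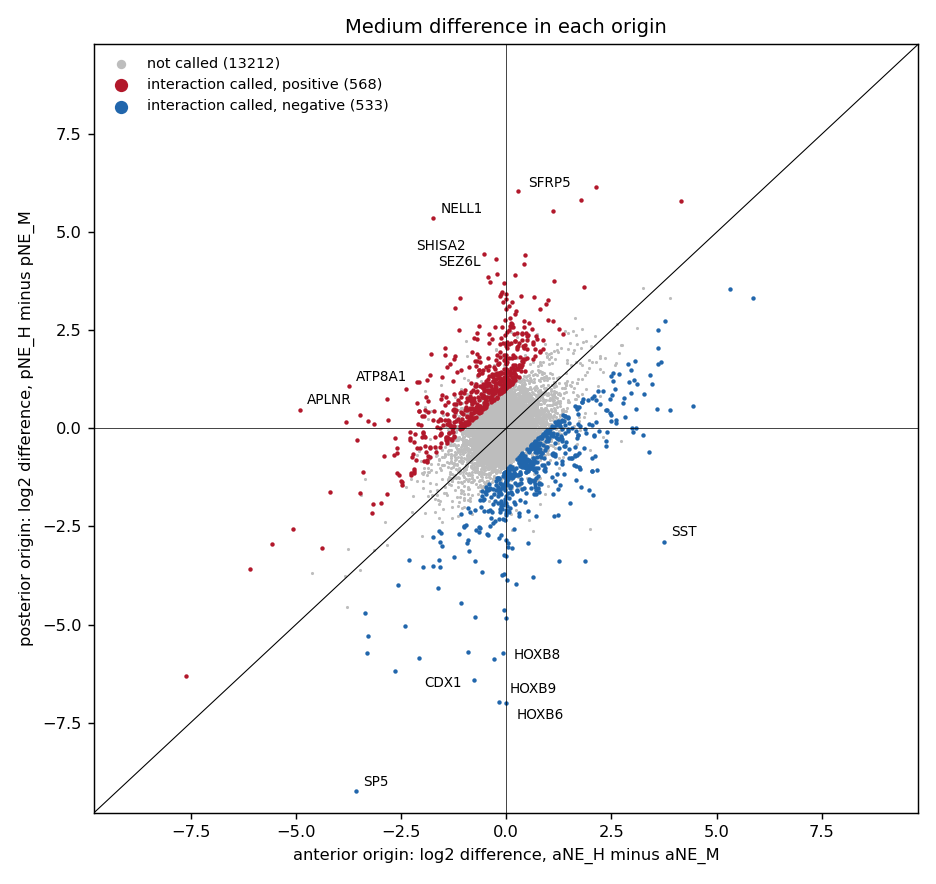
Log2 difference between hindbrain and midbrain medium in anterior-origin cells (horizontal axis) and posterior-origin cells (vertical axis) for the 14313 tested genes, each a point, coloured where the difference between origins was called (568 positive in red, 533 negative in blue). HOXB6, HOXB8, HOXB9 and CDX1 lie below 0 on the vertical axis and near 0 on the horizontal axis, and SST lies at the lower right.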

How the data were processed

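Poly-A RNA of H1 cells was sequenced in 18 libraries (9 groups of 2). The TPM values (length-corrected transcript shares) were computed and deposited by the authors as 1 table of 37550 rows. The submitters' processing notes name bcl2fastq, FastQC, Trim Galore, kallisto, deepTools and hg38, with no versions; the annotation and use of strand are not given in the sources used here. Of the rows, 7898 had no gene symbol. Depth is unknown, so no counting intervals are given.

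TPM were analysed as log2(TPM + 1), with a pseudocount of 1, for genes with at least 1 TPM in 2 of the 4 libraries compared. A limma 3.58.1 model (R 4.3.3) with a mean for each group and trended variances used all 18 libraries, with 9 residual degrees of freedom. P-values are two-sided and Benjamini-Hochberg adjusted over 14313 genes; the thresholds were 0.05 and an absolute log2 difference of 1. All 5 contrasts came from this fit, and the procedure was tested on simulated data. Values after a difference are limma's SE, and paired TPM values are replicates 1 and 2.

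Named genes came from 33 lists (541 genes, 540 in the table, 420 tested), the 12 largest rises and falls, and the 6 largest interactions each way, among called genes with a symbol, no overlap and a mean of at least 5 TPM. Some genes of these sets count in the totals but are not reported here. Members and lists were chosen with earlier results of these data known. Alternatives covered pseudocount, filters, scaling, the replicate block, the call rule, the libraries fitted and each replicate left out. The study's design text calls the replicates biological; whether they came from separate cultures is not said, so p-values measure the spread between these libraries. Same-numbered libraries did not deviate together (r = 0.01 for pNE_H with pNE_M), so numbers were used as names.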

Additional observations from a re-analysis of the deposited data

Results flagged for a closer look

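The medium difference of posterior-origin cells was compared with that of anterior-origin cells by limma's interaction term, and results for which it was called are given here. It was called for 1101 of 14313 tested genes. All 27 genes named by rank of their difference or interaction had a called interaction, but the choice favours this. Those ranked by interaction had to be called for it, and the others were ranked by the posterior-origin difference that enters it. Among those that rose in pNE_H the interaction on the log2 scale was 7.09 for NELL1, 5.78 for SFRP5, 4.97 for SHISA2, 4.57 for SEZ6L, 4.45 for SPX and 4.15 for CGA. It was 4.04 for CHGA, 3.97 for F2RL2, 3.77 for COL25A1, 3.71 for MCHR1 and 1.63 for CRABP1. Among those that fell it was -7.00 for HOXB6, -6.80 for HOXB9, -5.68 for SP5, -5.66 for CDX1, -5.65 for HOXB8 and -5.59 for URAD. It was -4.77 for CDX2, -3.77 for LY6G6D, -3.56 for ZIC1, -2.41 for FZD10 and -2 for FOXB1. DKK1 was the exception among the falls, with a positive interaction of 1.31. Its difference was -7.62 in anterior-origin cells and -6.31 in posterior-origin cells. In pNE_H it was under 1 TPM, where the log2(TPM + 1) scale shrinks differences. A fold in TPM rests there on values near the floor and does not rank the origins. ATP8A1 (4.81), APLNR (5.38) and SST (-6.64) were named for the interaction itself. The groups of 2 libraries are too small for a test of single outlying libraries. Plating density differed between the origins, and its part in these interactions was not tested.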

How the results depend on the processing

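The differences of the 174 named genes called between pNE_H and pNE_M kept their direction under all alternatives run, of which the filter at 5 TPM tested 146. Named genes that were not called are left out of this summary, so calls that they gained are not given. The 1015 calls became 973 to 1236 under another pseudocount (0.1), no filter on low values, median-ratio scaling, quantile normalization or another choice of libraries to fit. With a filter at 5 TPM they became 688. The genes called changed in part. Of the 1015, 960 were among the 1236 called with a pseudocount of 0.1, and 949 were called in the fit of the 4 libraries compared. With 1 replicate left out the genes called also changed in part. Among the named genes, TEK and ZNF703 lost the call under median-ratio scaling, and ZNF703 under quantile normalization. Leaving out 1 library lost ATP8A1, FST, IRX1, RARA, SEMA3A and TEK (pNE_H replicate 1), FZD9, ITGB1, KRT19 and ZNF703 (pNE_H replicate 2), DLL1, RARA, RDH10 and ZNF703 (pNE_M replicate 1) or CDH11 and TEK (pNE_M replicate 2). By adjusted p alone the calls were 3419 for pNE_H against pNE_M, 2299 for the interaction, 2287 for aNE_H against aNE_M, 5840 for pNE_H against pNE and 5558 for pNE_M against pNE, because the size limit was dropped. With a filter at 5 TPM, where fewer genes are tested, pNE_H against pNE gave 1141 (599 higher and 542 lower) and pNE_M against pNE 1194 (637 and 557), a balance turned from the main one. Leaving out 1 replicate gave 1026 to 1075 for the interaction, 686 to 771 for aNE_H against aNE_M, 1696 to 1863 for pNE_H against pNE and 1782 to 1840 for pNE_M against pNE; the lone library is assumed to vary like the other groups. With the replicate block the calls were 1016, 1092, 724, 1759 and 1810 in the order above, and no call of a named gene was lost. TPM keeps no depth, so its limit on low genes is unknown.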

Other observations

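Several genes outside the lists, chosen after their values were seen, were higher in hindbrain medium and are known from heart and pharyngeal tissue. They were picked because they rose, so they do not describe the tissue's genes as a group, and HAND1, another cardiac factor, was lower in hindbrain medium (0.0425 and 0 against 5.34 and 5.36 TPM). NKX2-5, a cardiac and pharyngeal factor, was at 23.2 and 17.1 TPM in pNE_H against 0.906 and 1.22 TPM in pNE_M (3.35 ± 0.25). TBX1, a factor of pharyngeal arches and the ear, was at 22.5 and 20.9 against 1.38 and 1.66 TPM (3.17 ± 0.21), and GATA5 at 12.2 and 8.88 against 0.888 and 0.923 TPM (2.58 ± 0.21). TBX3 (1.82 ± 0.19) and MEF2C (1.83 ± 0.32) were higher too. Of genes for contractile or secreted heart proteins, ACTC1 was at 78.6 and 83.1 against 13.1 and 12.8 TPM, MYL7 at 8.44 and 5.39 against 1.34 and 2.02 TPM and NPPB at 58.1 and 98.4 against 25.1 and 21.9 TPM. ACTC1, MYL7, MEF2C and NPPB were also called higher in aNE_H than in aNE_M, with differences of 3.11 ± 0.12, 1.97 ± 0.34, 2.22 ± 0.32 and 3.61 ± 0.23. NKX2-5, TBX1, GATA5 and TBX3 were not called there, TBX1 only by the size limit (0.95 ± 0.21, limma adjusted p = 0.0067). For these 4 the interaction was called (2.68, 2.22, 2.68 and 1.60), which the choice of genes that rose in pNE_H favours. NPPB had a called negative interaction (-1.97 ± 0.33), so it differed more in anterior-origin cells. The interactions of ACTC1, MYL7 and MEF2C were -0.56, -0.42 and -0.39 and were not called.

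Some genes best known from neurons, likewise picked because they rose, were higher in hindbrain medium, although DCX and STMN2 stayed under 1 TPM and 2 of the 3 tested genes of the neuronal differentiation list, NEUROG2 (-3.87 ± 0.24) and TUBB3 (-1.85 ± 0.10), were lower. The neurofilament gene NEFM was at 1952 and 1819 TPM in pNE_H against 379 and 397 TPM in pNE_M and 63.7 and 85.3 TPM on day 2, and NEFL at 258 and 221 against 86.2 and 87.4 TPM (2.28 ± 0.12 and 1.45 ± 0.10 between media). In anterior-origin cells NEFL was called the other way (-1.17 ± 0.10). CALCA, the precursor of calcitonin and a neuropeptide, was at 7.51 and 7.68 against 0.953 and 0.586 TPM, and BDNF, a neurotrophin, at 8.48 and 8.04 against 1.05 and 1.15 TPM. SST, the somatostatin precursor, was lower as well (-2.89 ± 0.19).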
